A study of Mus musculus with 6 samples.

Results

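A set of 10 genes of antigen presentation by the major histocompatibility complex (MHC) was followed across 6 mouse livers. Of the 37991 Ensembl gene IDs counted in every liver, 10 map to the chosen symbols: 5 of class I (H2-K1, H2-D1, B2m, Tap2 and Nlrc5) and 5 of class II (H2-Aa, H2-Ab1, H2-Eb1, Cd74 and Ciita). The symbols were a given list of names, and the rule set no threshold on their values. Poly(A) RNA was sequenced from flash-frozen whole livers of FVB mice at 84 days of age. The WT group held 3 livers with the genotype Ing5 +/+, and the Het group held 3 livers with the genotype Ing5 MommeD48/+, in which 1 of the 2 copies of Ing5 carries the mutant allele. Ing5 encodes a PHD-finger subunit of histone acetyltransferase complexes. The design asks what heterozygosity for the Ing5 mutation does to liver transcripts. The labels do not say that the livers of a genotype came from separate mice, so each p-value below measures only how these samples varied, and that variation may be technical.

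Class I molecules present peptides from inside the cell to CD8+ T cells. Each is a polymorphic heavy chain (H2-K1 and H2-D1 encode 2 of them) held by the light chain beta-2 microglobulin (B2m), and it is loaded with peptides that the transporter TAP, of which Tap2 is a subunit, pumps into the endoplasmic reticulum. Nlrc5 is the transactivator of the class I genes. Class II molecules present peptides taken up from outside to CD4+ T cells, and they are paired from alpha and beta chains (H2-Aa with H2-Ab1, and H2-Eb1 with an E alpha chain). The invariant chain Cd74 guides them to the endosome, and Ciita is their transactivator. Nearly all nucleated cells carry class I, whereas class II is typical of dendritic cells, B cells and macrophages, in liver including Kupffer cells. FVB mice carry the H2 haplotype q, which is known for making no I-E protein, whereas the reference mouse genome carries haplotype b. How many reads of the polymorphic chains were lost in alignment for that reason was not tested.

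Transactivators of both classes do not bind DNA alone but join a complex of RFX, CREB and NF-Y factors on a shared promoter module, of which the Y box is the NF-Y site. Promoter sequences show which letters of that module lie near the starts of the members. Shown here, for 5 of the 10 members, are the 180 bases before the annotated start in the RefSeq promoter table (build GRCm38.p6). Capitals mark matches, on either strand, to the Y box core ATTGG, the X box letters AGNAACNG, the cyclic AMP response element TGACGTCA, the kappa B letters GGGATTCCC and the interferon response letters GAAANNGAA. None of these motifs overlaps another in the windows shown, and the motifs were chosen with the sequences in view. The windows are chr17:34000348-34000527 for H2-K1 (minus strand), chr17:35262914-35263093 for H2-D1 (plus strand), chr2:122147507-122147686 for B2m (plus strand), chr17:34287824-34288003 for H2-Aa (minus strand) and chr17:34305687-34305866 for H2-Eb1 (plus strand).
H2-K1: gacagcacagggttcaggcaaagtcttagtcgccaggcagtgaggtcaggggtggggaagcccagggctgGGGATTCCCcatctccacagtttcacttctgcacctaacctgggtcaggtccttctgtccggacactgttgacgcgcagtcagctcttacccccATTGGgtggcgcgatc
H2-D1: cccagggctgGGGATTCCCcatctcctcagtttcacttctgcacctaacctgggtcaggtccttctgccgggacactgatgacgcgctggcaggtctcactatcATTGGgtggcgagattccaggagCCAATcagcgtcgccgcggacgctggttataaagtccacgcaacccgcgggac
B2m: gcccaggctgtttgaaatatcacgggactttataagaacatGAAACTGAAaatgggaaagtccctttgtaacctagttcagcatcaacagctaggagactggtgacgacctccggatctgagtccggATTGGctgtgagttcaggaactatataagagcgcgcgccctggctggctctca
H2-Aa: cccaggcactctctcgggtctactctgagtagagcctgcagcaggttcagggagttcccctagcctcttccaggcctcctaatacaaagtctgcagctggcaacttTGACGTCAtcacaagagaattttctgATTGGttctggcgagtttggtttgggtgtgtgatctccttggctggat
H2-Eb1: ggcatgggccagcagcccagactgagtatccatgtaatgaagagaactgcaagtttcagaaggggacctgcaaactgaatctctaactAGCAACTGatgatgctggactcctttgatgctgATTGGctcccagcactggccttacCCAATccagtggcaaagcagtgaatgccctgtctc
ATTGG was present in 5 of 5 windows, against 27.5% of the 32851 promoter windows of the same length. H2-D1 and H2-Eb1 held it on both strands. Among the class I windows, H2-K1 and H2-D1 shared the kappa B letters, which 59 of all windows hold (0.18%), and B2m held the interferon response letters, present in 4.89% of windows. Of the class II windows, H2-Aa held the cyclic AMP response element (1.45% of windows) and H2-Eb1 the X box letters (10.6%). Only the letters given above were searched, so a window without a match may hold a variant of that site. Which gene holds which motif therefore depends on the letters chosen. A match describes letters in the reference genome of another haplotype, not binding in these livers.

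Depth was similar in all libraries, at 19840541 to 22041117 counts, and 16323 to 16597 genes had at least 1 count. Values are CPM, that is counts scaled to the library size after TMM normalisation. A count of 0, which allows up to 3 counts, corresponds to 0.136 to 0.154 CPM, a limit that covers counting error only. The mutated gene was counted at 182, 228 and 191 in WT replicates 1 to 3 and 193, 217 and 180 in Het replicates 1 to 3, and the genotypes overlapped (log2 fold change −0.05, SE 0.11). Fold changes throughout are log2 of Het over WT. No batch is named in the labels.

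The class I genes B2m, H2-D1 and H2-K1 were more abundant than all class II members in every liver, whereas Tap2 and Nlrc5 lay below Cd74. Per kilobase of exon, B2m was highest at 2041 ± 175 CPM (SD, n = 6 livers), ahead of the heavy chains H2-D1 at 229 ± 35.6 and H2-K1 at 139 ± 25.8. Cd74, at 31.3 ± 15.6 CPM per kilobase, was the most abundant class II member, and none of these 4 overlapped a neighbour in that order over the 6 livers. Tap2 (6.60 ± 0.412), H2-Ab1 (3.58 ± 2.27), H2-Aa (2.78 ± 1.67) and Nlrc5 (2.19 ± 0.516) followed, and neighbours among these overlapped in range. H2-Eb1 (0.227 ± 0.10) and Ciita (0.0925 ± 0.0580) were lowest and overlapped each other, so the transactivator of class II stood far below that of class I. Exon lengths were taken from an annotation of another build than the files. With the length of the longest coding transcript instead, H2-Aa (9.35 CPM per kilobase) and H2-Ab1 (7.59) moved above Tap2 (7.25), and H2-D1 (281 ± 43.7) and H2-K1 (253 ± 46.9) came closer together. H2-K1 and H2-D1 resemble each other and other H2 chains in sequence, so their values are uncertain wherever the counting split or dropped shared reads.

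**Figure D1:**
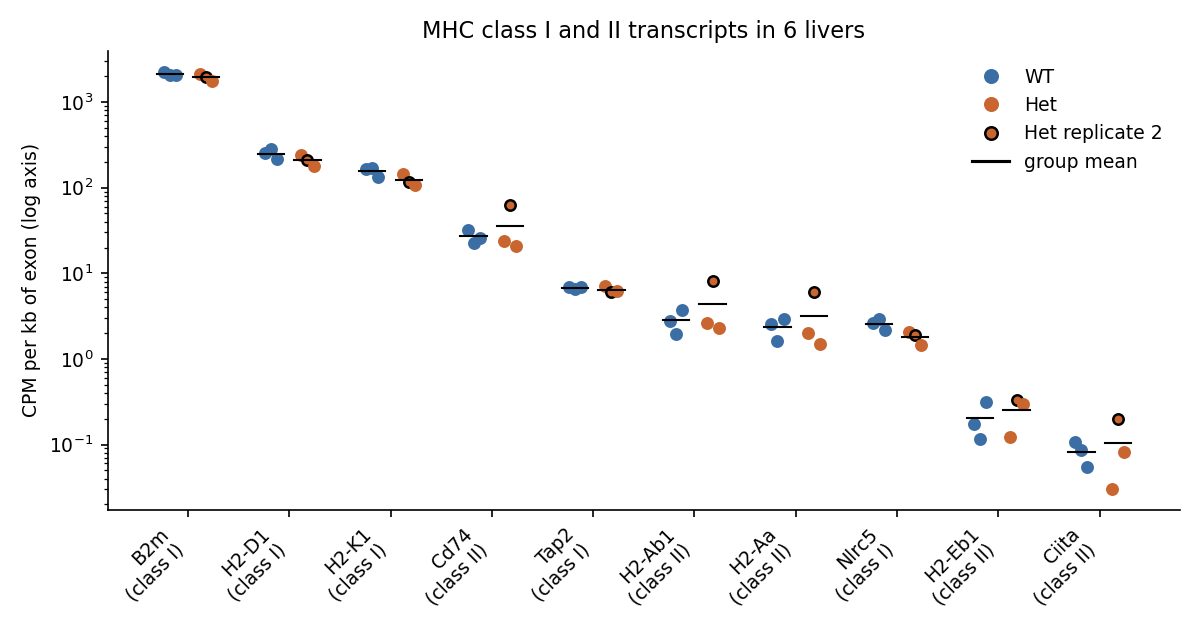
Level of each of the 10 members in each of the 6 livers, in CPM per kilobase of exon on a log axis, with WT and Het livers as separate points. B2m, H2-D1 and H2-K1 lie above the class II members in all 6 livers, and Het replicate 2 is the highest point of each class II member.

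Summed over its 5 members, class I stood at 2694, 2548 and 2416 CPM per kilobase in WT replicates 1 to 3 and at 2519, 2286 and 2046 in Het replicates 1 to 3. The corresponding class II sums were 37.6, 26.7 and 33.2 in WT and 28.6, 76.8 and 25.3 in Het. Het replicate 3 had the lowest sum of both classes, and Het replicate 2 had more than any other liver of class II alone. The ratio of class I to class II was 71.6, 95.5 and 72.9 in WT and 88.1, 29.8 and 81.0 in Het, that is 80.0 ± 13.4 and 66.3 ± 31.8 (SD, n = 3). Without Het replicate 2 the mean ratio in Het was 84.5, above that of WT, so the direction between genotypes rests on that liver. Since B2m makes up most of the class I sum, the heavy chains H2-K1 and H2-D1 were also set against the class II chains H2-Aa, H2-Ab1 and H2-Eb1. That ratio was 76.0, 122 and 49.2 in WT and 79.7, 22.9 and 69.1 in Het. With the longest coding transcript as length it was 41.6, 66.8 and 27.5 in WT and 44.0, 12.6 and 39.9 in Het. On either length the heavy chains exceeded the class II chains in 6 of 6 livers, and the ratio was lowest in Het replicate 2.

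All 5 class I members had lower mean values in Het than in WT livers, but none passed the test. The class I members had a median log2 fold change of −0.24, against 0.00 over the 12631 genes tested (interquartile range −0.09 to 0.09), where 49.7% of genes were lower in Het. By edgeR's quasi-likelihood test with Benjamini-Hochberg adjustment, 0 of the 10 members passed an adjusted p of 0.05, as did 0.0% of all genes. DESeq2 called 0 of the 10 members and 0.113% of the genes it tested, and limma-voom called 0 members and 0 genes. At an unadjusted p under 0.05, edgeR listed 2 of the 10 members, H2-K1 and Nlrc5, against 4.33% of all genes, and both were lower in Het (2.21% of genes, with 2.12% higher). Every member had an adjusted p of 0.9998 with edgeR. For each statement on level in these whole-organ samples, fewer cells of a type and less RNA per cell cannot be told apart.

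Nlrc5 (ENSMUSG00000074151) differed most among the members relative to its error. It was measured at 22.3, 24.5 and 18.7 CPM in WT replicates 1 to 3 and at 17.5, 16.1 and 12.3 CPM in Het replicates 1 to 3. Every Het liver was below every WT liver, a pattern shown by 1 of the 10 members and 4.28% of all genes (8.99% with either direction). The group means were 21.9 ± 2.95 and 15.3 ± 2.66 CPM (SD, n = 3), a log2 fold change of −0.52 (SE 0.14, 95% interval −0.84 to −0.19). That is a 0.699-fold level in Het (0.559 to 0.875), with an adjusted p of 0.9998 by edgeR. Over the alternatives its adjusted p ran from 0.182, in the edgeR fit without WT replicate 3, to 0.99998, in the fit without Het replicate 3.

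Both heavy chains followed the same order of livers. H2-K1 (ENSMUSG00000061232) was measured at 484, 503 and 390 CPM in WT and at 422, 343 and 312 CPM in Het. Het replicate 1 exceeded WT replicate 3, so the groups overlapped, and its log2 fold change came to −0.35 (SE 0.14, 95% interval −0.68 to −0.03). H2-D1 (ENSMUSG00000073411) was measured at 649, 724 and 551 CPM in WT and at 615, 549 and 461 CPM in Het, again with Het replicate 1 inside the WT range (−0.24, SE 0.14). For both genes WT replicate 2 was the highest liver and Het replicate 3 the lowest.

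B2m and Tap2 varied less between livers than the heavy chains. B2m (ENSMUSG00000060802), the shared light chain, was measured at 1951, 1794 and 1772 CPM in WT and at 1829.8, 1676 and 1508 CPM in Het, and Het replicate 1 lay between WT replicates 1 and 2 (−0.14, SE 0.12). Tap2 (ENSMUSG00000024339) was measured at 25.8, 24.5 and 26.4 CPM in WT and at 26.5, 22.8 and 23.7 CPM in Het. The Tap2 ranges overlapped, with its highest value in Het replicate 1, and its log2 fold change of −0.07 (95% interval −0.27 to 0.12) was the smallest in size of the 10. From the lowest to the highest liver, Tap2 spanned 1.17-fold, B2m 1.29-fold, H2-D1 1.57-fold, H2-K1 1.61-fold and Nlrc5 1.99-fold.

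Acute-phase genes were read beside class I. The 21 acute-phase genes, which hepatocytes make in inflammation, were all lower in mean in Het (0 called by edgeR, 1 at an unadjusted p under 0.05, median log2 fold change −0.55). Of all tested genes, 49.7% were lower in Het, 0.0% were called by edgeR and 4.33% had an unadjusted p under 0.05. The serum amyloid gene Saa1 was measured at 1381, 4300 and 31.2 CPM in WT and at 753, 44.8 and 24 CPM in Het. WT replicate 2, WT replicate 1 and Het replicate 1 were the 3 highest livers in Saa1, named after its values were seen, and in H2-K1 and H2-D1. The same 3 livers were highest in B2m, in another order. The 3 highest livers differed from these in Nlrc5, where WT replicate 3 exceeded Het replicate 1, and in Tap2. The livers formed separate high and low clusters in Saa1, so no correlation was computed, and the part of this difference in the class I values was not tested.

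Every class II member had a higher mean in Het livers, and in each case the highest value came from Het replicate 2. Their median log2 fold change was 0.40. Het replicate 2 was the highest of the 6 livers in 5 of 5 class II members and 0 of 5 class I members, and this liver was highest in 17.7% of all tested genes. Without it, 4 of the 5 class II members had lower means in Het, and all 5 class I members still did. H2-Aa and H2-Ab1 were 2 of only 9 tested genes (0.0713%) whose level in Het replicate 2 was above 2 times the highest of the other 5 livers.

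H2-Aa (ENSMUSG00000036594), the A alpha chain, was measured at 9.67, 6.22 and 11.2 CPM in WT and at 7.70, 22.8 and 5.71 CPM in Het. Its counts were 201, 137 and 218 in WT and 161, 495 and 117 in Het. Het replicate 2 stood 2.81-fold above the mean of the other 5 livers, whereas Het replicate 1 lay inside the WT range and Het replicate 3 below it. The estimated log2 fold change was 0.43 (SE 0.63, 95% interval −1.21 to 2.07), and without Het replicate 2 it was −0.43 (SE 0.26). H2-Ab1 (ENSMUSG00000073421), its beta partner, was measured at 7.08, 5.04 and 9.66 CPM in WT and at 6.79, 20.7 and 5.95 CPM in Het. Het replicate 2 was 3.0-fold above the mean of the other livers, and the remaining Het values lay inside the WT range. The fold change was 0.63 (SE 0.60), and −0.18 (SE 0.26) without that liver.

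Cd74 (ENSMUSG00000024610), the invariant chain, was measured at 53.8, 38.4 and 43.8 CPM in WT and at 39.9, 104 and 35.4 CPM in Het. It stood 2.47-fold above the mean of the other livers in Het replicate 2, with Het replicate 1 inside the WT range and Het replicate 3 below it. Its log2 fold change was 0.40 (SE 0.49, 95% interval −0.90 to 1.70), and −0.27 (SE 0.15) without that liver. Ciita (ENSMUSG00000022504) was counted at 21, 18 and 10 in WT and at 6, 41 and 16 in Het, which spans 6.57-fold on the CPM scale (0.34, SE 0.59). Without Het replicate 2 it was −0.56 (SE 0.49). H2-Eb1 (ENSMUSG00000060586), the E beta chain, was counted at 7, 5 and 12 in WT and at 5, 14 and 12 in Het, and it kept a positive fold change without Het replicate 2 (0.34, SE 0.49, and 0.08, SE 0.58). At 5 to 14 counts a liver its counting error is large, and the groups overlapped.

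**Figure D2:**
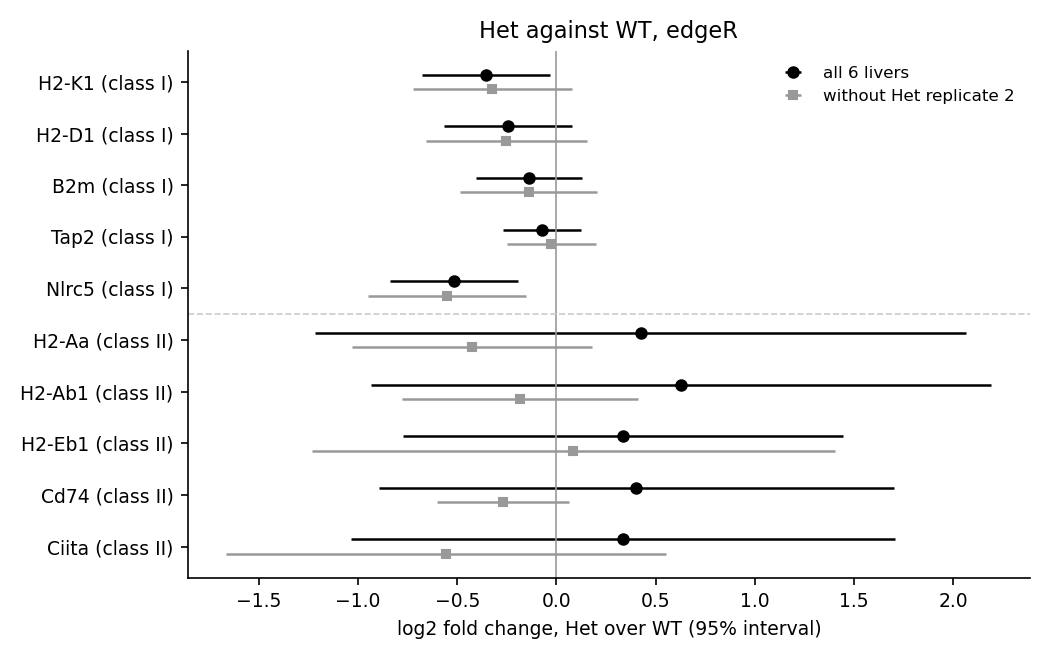
Log2 fold change of Het over WT for each member with its 95% interval, for all 6 livers and without Het replicate 2. The 5 class I members stay below 0 in both fits, and 4 of the 5 class II members change from above to below 0.

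Within a liver, H2-K1 was set against H2-Aa to compare the classes without the scaling between libraries. The difference in log2 CPM was 5.63, 6.32 and 5.11 in WT and 5.76, 3.91 and 5.75 in Het. Het replicates 1 and 3 lay inside the WT range and Het replicate 2 below it. The means were 5.69 ± 0.606 and 5.14 ± 1.07 (SD, n = 3), a difference of −0.55 (exact two-sided permutation p = 0.7, where 0.1 is the smallest p that 3 against 3 allows). Without Het replicate 2 the difference was 0.07.

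Across the 6 livers, by Pearson's r, H2-K1 varied with H2-D1, Nlrc5 and B2m, and H2-Aa with H2-Ab1 and Cd74. Tap2 was not among the pairs. Both genotypes were pooled, so a difference between them that 2 genes share, such as lower means in Het, enters these values. Its part was not tested. Relations of 8 pairs were computed on log2 CPM, with exact permutation tests adjusted by Benjamini-Hochberg over the 8. H2-K1 followed H2-D1 with Pearson's r 0.96 and Spearman's rho 1.0 (exact permutation p = 0.00139 and 0.00278, adjusted 0.0111 and 0.0222). These 2 genes may share reads, and the part of that in their likeness was not tested. H2-K1 followed Nlrc5 with r 0.96 and rho 0.94 (exact permutation p = 0.00556 and 0.0167, adjusted 0.0148 and 0.0333) and B2m with r 0.87 and rho 0.83 (exact permutation p = 0.0167 and 0.0583, adjusted 0.0267 and 0.0933). Without the livers farthest from the median of H2-K1, WT replicate 2 and Het replicate 3, r was 0.93 with H2-D1, 0.90 with Nlrc5 and 0.9997 with B2m.

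For class II, H2-Aa followed H2-Ab1 with r 0.97 and rho 0.94 (exact permutation p = 0.00417 and 0.0167, adjusted 0.0148 and 0.0333). With Cd74 its r was 0.95 and rho 0.94 (exact permutation p = 0.00972 and 0.0167, adjusted 0.0194 and 0.0333). Without Het replicates 2 and 3, the livers farthest from its median, r was 0.95 with H2-Ab1 and 0.66 with Cd74, so the relation to Cd74 rests on those livers. H2-Aa and Ciita had r 0.58 and rho 0.37 (exact permutation p = 0.217 and 0.497, adjusted 0.289 and 0.663), and r −0.00 without the same livers. Between the classes, H2-K1 and H2-Aa had r −0.24 and rho −0.09 (exact permutation p = 0.671 and 0.919, adjusted 0.757 and 0.919). The difference between these correlations was not tested. Groups of 3 are too small for a value within a genotype. By Pearson's r, 5 of the 8 relations passed with all livers, and none without WT replicate 1, Het replicate 2 or Het replicate 3. With a liver left out fewer pairings exist, so the smallest possible p is larger and a relation passes less easily.

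**Figure D3:**
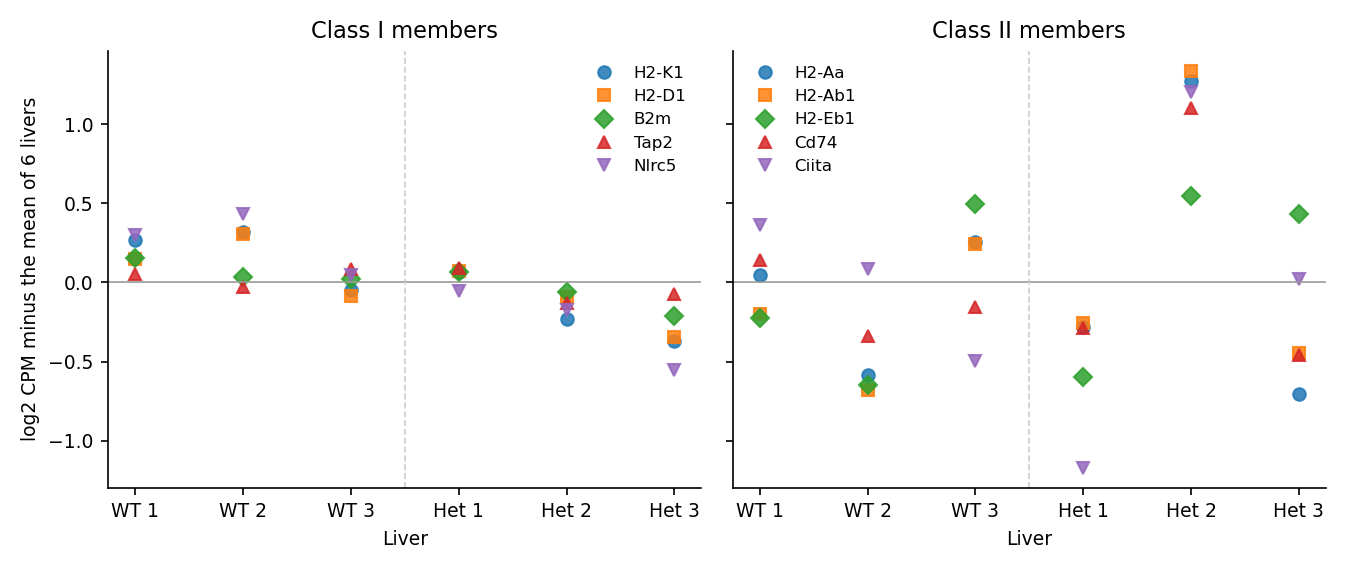
Deviation of each member's log2 CPM from its mean over the 6 livers, by liver, with class I and class II members drawn apart. WT replicate 2 and Het replicate 3 are the ends of the range of H2-K1, H2-D1 and Nlrc5, and the class II members are highest together in Het replicate 2.

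By Pearson's r over 6 livers among the 11594 genes compared, the genes outside the MHC lists most like H2-K1 were Plce1 (0.992), Cd302 (0.992), Lamp1 (0.992), Rcan2 (0.991) and Ifitm3 (0.990). Those most like H2-Aa were Gab2 (0.995), Tmem60 (0.994), Gucy1a1 (0.990), Des (0.983) and Antxr1 (0.979). These values are a description over 6 points and carry no test.

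Genes that supply and load class I peptides were divided in direction. Of 13 tested, 7 were lower and 6 higher in Het (median log2 fold change −0.02), and 0 passed edgeR's adjusted test. At an unadjusted p under 0.05 edgeR listed 1 gene, against 4.33% of all genes. That gene was the immunoproteasome subunit Psmb8, at 26.4, 24.9 and 22.2 CPM in WT and at 22.1, 18.3 and 17.9 CPM in Het, with every Het liver below every WT liver (−0.34, SE 0.11). Tapbpl, a peptide editor related to tapasin, showed the same separation, at 30.0 ± 2.59 and 26.5 ± 0.996 CPM (SD, n = 3). That pattern held in 2 of the 13, against 4.28% of all genes. The chaperone genes Calr (0.12, SE 0.15) and Pdia3 (0.12, SE 0.16), the most abundant of the list, overlapped between groups. Tap1, the partner of Tap2, stayed between 15.1 and 16.2 CPM in all 6 livers.

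The rest of the class II pathway was divided in direction too. Of 9 genes tested, 4 were lower and 5 higher in Het, 0 passed and 0 had an unadjusted p under 0.05 with edgeR (DESeq2 and limma-voom called 0 as well), and the median was 0.00. The proteases Ctsl (−0.03, SE 0.08) and Sppl2a (0.00, SE 0.13), which trim the invariant chain, and the thiol reductase Ifi30 (0.16, SE 0.15) overlapped between groups, as did the ubiquitin ligase gene March1 (−0.54, SE 0.41). Het replicate 2 was the highest liver in 4 of the 9 tested genes of this list, against 17.7% of all tested genes. With the genes of too few counts to be tested, it was highest in 7 of 13 matched genes. Among them, named after their values were seen, the peptide exchange chain H2-DMa was measured at 2.74, 1.95 and 2.16 CPM in WT and at 2.01, 4.65 and 1.80 CPM in Het, and H2-DMb1 at 1.64, 0.363 and 1.34 CPM in WT and at 1.15, 2.62 and 0.927 CPM in Het. Both were highest in the liver where the class II chains were highest.

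The list of the shared promoter module held RFX, CREB and NF-Y genes and also the acetyltransferase genes Crebbp, Ep300 and Kat2b. Of 11 tested, 3 were lower and 8 higher in Het (median 0.11), whereas 49.7% of all tested genes were lower. By edgeR 0 passed the adjusted threshold and 0 had an unadjusted p under 0.05, against 4.33% of all genes at the latter, and DESeq2 and limma-voom called 0. In 4 of the 11, every Het liver was above every WT liver, against 4.72% of all genes. These were the RFX subunit gene Rfxank, the CREB gene Creb1 (17.8 ± 0.493 and 20.04 ± 0.483 CPM, log2 fold change 0.17, SE 0.08), the NF-Y subunit gene Nfyb (0.15, SE 0.08) and the acetyltransferase gene Kat2b (0.11, SE 0.08). Ep300 lay within the WT range in all Het livers (0.03, SE 0.11). Of the interferon gamma pathway, which induces both classes, 10 genes were tested, 3 lower and 7 higher in Het (median 0.03). By edgeR 0 of these passed the adjusted threshold and 0 had an unadjusted p under 0.05, and 0 were called by DESeq2 and limma-voom. The shares over all genes are those given for the promoter module. Ifng itself had at most 1 count in a liver. Irf9 (−0.35, SE 0.16), Irf2 (−0.13, SE 0.10) and Jak1 (−0.01, SE 0.09) overlapped between groups.

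Markers of the cell types that carry class II, and of others in liver, were read beside it. Kupffer cell markers, 13 genes, summed to 295, 283 and 161 CPM in WT and to 229.9, 316 and 181 CPM in Het. Het replicate 2 was highest in 11 of the 13, against 17.7% of all tested genes, and its sum was 1.37-fold the mean of the other livers. Among the markers that ratio was 1.23 for Cd163, 1.32 for Clec4f, 1.75 for Adgre1 and 2.46 for Marco, examples chosen after their values were seen. Dendritic cell markers summed to 9.30 to 10.5 CPM in WT and to 9.99 to 10.5 CPM in Het, with 10.3 CPM in Het replicate 2. The largest part of that sum was Zbtb46, at 4.42 CPM in Het replicate 2 and at 3.90 to 5.45 CPM in the other livers. Of the 11 dendritic cell markers, 4 were highest in Het replicate 2, but only 1 of the 5 with enough counts to be tested. B cell markers summed to 7.17 to 7.50 CPM in WT and to 5.9997 to 10.9 CPM in Het, and T and NK cell markers to 3.04 to 4.73 CPM and 2.25 to 6.21 CPM, and both lists were highest in Het replicate 2. The neutrophil marker Ly6g was at 0 in all 6 livers, and the monocyte and neutrophil list did not exceed 4.63 CPM. Sinusoidal endothelial markers, at 157 to 205 CPM in WT and at 156 to 191 CPM in Het, and hepatocyte markers, at 89896 to 103134 CPM and 92232 to 112804 CPM, did not set Het replicate 2 apart.

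Smooth muscle markers, a list added after the values were seen, summed to 9.58, 10.6 and 9.61 CPM in WT and to 9.89, 21.6 and 7.27 CPM in Het. All 8 were highest in Het replicate 2, among them the 5 with enough counts to be tested, against 17.7% of all tested genes. Acta2 stood there at 4.51 CPM (0.976 to 1.95 in the other livers) and Myh11 at 4.37 CPM (0.829 to 1.86). Bile duct markers, also added then, summed to 46.4 to 49.4 CPM in WT and to 44.9 to 49.3 CPM in Het, although their member Krt19 reached 2.16 CPM in Het replicate 2 against 0.488 to 1.01 CPM elsewhere. Acta2, Myh11 and Krt19 were among the 9 genes above 2 times the highest other liver in Het replicate 2, so their height there is no separate observation. Of 27 interferon response genes matched, 4 were highest in that liver, Irgm2, Gbp2, Cxcl9 and Cxcl10, a share below the 17.7% of all tested genes. Named after their values were seen, Cxcl9 was at 6.95 CPM against 1.29 to 4.06 CPM and Cxcl10 at 1.29 CPM against 0.390 to 0.874 CPM. The part of these differences in the class II values of Het replicate 2 was not tested.

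**Figure D4:**
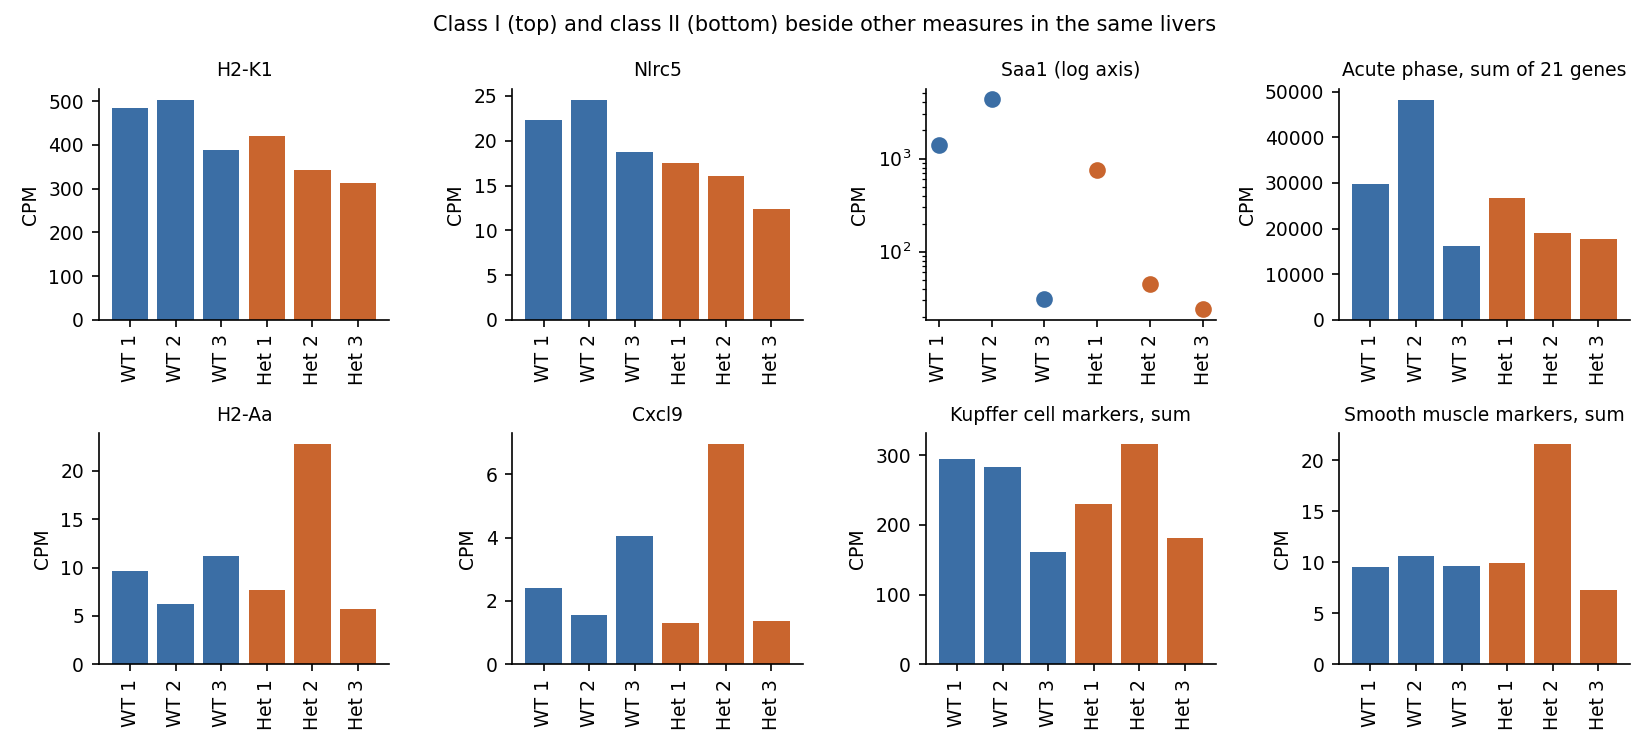
CPM in each WT (blue) and Het (orange) liver of H2-K1, Nlrc5, Saa1 (points on a log axis) and the 21 acute-phase genes in the top row, and of H2-Aa, Cxcl9 and the summed Kupffer cell and smooth muscle markers in the bottom row, where bars start at 0. The 3 livers highest in H2-K1 are also the highest in Saa1, and Het replicate 2 is the highest liver in all 4 panels of the bottom row. Saa1, Cxcl9 and the smooth muscle list were chosen after their values were seen, so their likeness to the members is no separate observation.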

How the data were processed

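Poly(A) RNA of 6 livers was extracted with Trizol and prepared with an Illumina TruSeq RNA kit, per the labels' protocols. TopHat2 2.0.11, HTSeq 0.6.1, DESeq and the build mm9 are named, without their roles, per the submitters' processing notes. For the annotation release and for the strand setting of the counting, the entry is: not given in the sources used here. Each deposited file holds raw whole-number counts by gene. Of 37991 gene IDs, 32919 matched a symbol by Ensembl ID.

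Counts were filtered with filterByExpr, which left 12631 genes and all 10 members, scaled by TMM factors and fitted with the robust quasi-likelihood test of edgeR 4.0.16 in R 4.3.3, with genotype as the sole factor and Benjamini-Hochberg adjustment over all tested genes at 0.05. The biological coefficient of variation was 0.134. SE and 95% intervals were derived from each gene's F statistic. Libraries were checked pairwise by chi-square, and none was a copy of another. Levels per kilobase used exon lengths of GENCODE M21. The class difference was tested by an exact permutation test, and relations between genes by permuting livers, with 8 pairs in the adjustment, of which 1 is not reported here. The steps were tested on simulated data.

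The members and lists were chosen with earlier results of these data known. Named genes were the 10 members, Ing5, of each pathway list called genes or otherwise its 2 most abundant tested genes and the 2 with the smallest unadjusted p, and the 5 genes most like H2-K1 and H2-Aa. Other genes in the text, among them Saa1, Cxcl9, Cxcl10, Tap1, Rfxank, Ifng, Fcgrt and single cell markers, lay outside this rule and were named after their values were seen. Alternatives were DESeq2 1.42.0 and its size factors, limma-voom (limma 3.58.1), no robust estimation, a block for the replicate number, no low-count filter, a minimum of CPM above 1 in 3 libraries, leaving the 20 most abundant genes out of the library sizes, each library left out, H2-D1 with H2-Ab1 as the pair, CPM without division by length and, added after seeing the data, the longest coding transcript as length.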

Additional observations from a re-analysis of the deposited data

How the results depend on the processing

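Under all 14 alternatives to the fit 0 of the members tested passed, and the 5 class I members kept negative log2 fold changes. Leaving out 1 liver at a time gave ranges of −0.49 to −0.26 for H2-K1, −0.35 to −0.14 for H2-D1, −0.21 to −0.07 for B2m, −0.14 to −0.03 for Tap2 and −0.62 to −0.38 for Nlrc5. These were lowest without Het replicate 1 and nearest 0 without Het replicate 3, or for Tap2 without Het replicate 2. For class II the ranges were −0.43 to 0.76 for H2-Aa, −0.18 to 0.93 for H2-Ab1, −0.27 to 0.67 for Cd74 and −0.56 to 0.77 for Ciita, each reversed only without Het replicate 2. The H2-K1 minus H2-Aa difference ranged from −0.857 to 0.0684, and reversed without the same liver. Among other genes the sign changed within −0.116 to 0.00771 for Ing5, −0.13 to 0.14 for Cd1d1, −0.000386 to 0.263 for Calr, −0.0228 to 0.292 for Pdia3, −0.0605 to 0.00616 for Ctsl, −0.127 to 0.0875 for Sppl2a, −0.0790 to 0.109 for Ep300 and −0.0642 to 0.0411 for Jak1. Pearson's r ranged from −0.15 to 0.68 for H2-Aa with Ciita and from −0.86 to 0.25 for H2-K1 with H2-Aa, and the number of relations that passed from 0 to 5. The number of genes past the threshold, 0 as reported, was 14 with DESeq2, 1 without the filter and 0 to 17 with 1 library left out, at most 17 without WT replicate 3 and 10 without Het replicate 1. The class I to class II ratio in WT was 48.7 without division by length and 60.2 with the longest coding transcript. The cause of these moves was not tested.

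With the replicate number as a block, 0 genes passed and the lowest adjusted p of a member was 0.232 (Nlrc5, edgeR with Benjamini-Hochberg adjustment). The blocked class difference was −0.55 (exact permutation p = 1.0 over 3 pairs, where 0.25 is the smallest possible). Same-numbered livers had correlated deviations of −0.02, −0.08 and 0.22, inside the range of the other pairs of WT and Het livers (−0.22 to 0.25). These 3 values cannot decide whether same-numbered livers share a litter or a day, which the labels do not say. H2-Eb1 and Ciita, with 5 to 41 counts a liver, are limited by depth.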

Other observations

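Class I chains other than H2-K1 and H2-D1 were also counted in these livers. Of 24 such genes listed, 21 matched an ID and 17 were tested, of which 13 were lower and 4 higher in Het (median log2 fold change −0.19). Of all tested genes, 49.7% were lower in Het. None of the 17 passed with edgeR, DESeq2 or limma-voom. At an unadjusted p under 0.05 edgeR listed 2 of them, H2-T10 and Hfe, against 4.33% of all genes. In 3 of the 17, H2-Q7, H2-T24 and Hfe, every Het liver was below every WT liver, against 4.28% of all genes. H2-Q10, a liver-derived class I chain that is secreted, was measured at 751, 627 and 840.0 CPM in WT replicates 1 to 3 and at 721, 568 and 655 CPM in Het replicates 1 to 3. Its highest liver, WT replicate 3, was not that of H2-K1. Hfe, which takes part in iron regulation, was at 33.9, 31.2 and 31.5 CPM in WT and at 29.5, 23.5 and 27.6 CPM in Het, every Het liver below every WT liver (log2 fold change −0.26, SE 0.10). H2-T10 was at 32.1 ± 1.11 CPM in WT and at 27.5 ± 3.05 CPM in Het (SD, n = 3), with overlapping groups.

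Cd1d1, which presents lipids to NKT cells, was at 227 to 231 CPM in the WT livers and at 295, 210.1 and 210.0 CPM in Het replicates 1 to 3, so the Het livers lay on both sides of a narrow WT range. The neonatal Fc receptor gene Fcgrt was at 136 to 151 CPM in WT and at 140.1 to 163 CPM in Het. H2-Q1, picked after its values were seen, was at 0.230 CPM in Het replicate 2 and at 0.732 to 2.07 CPM in the other livers. Of 25 interferon response genes tested, 19 were lower and 6 higher in Het, 0 passed and 2 had an unadjusted p under 0.05 by edgeR (median −0.14). Among all tested genes, 49.7% were lower in Het and 4.33% had an unadjusted p under 0.05 by edgeR.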
